A study of Homo sapiens with 8 samples.

Results

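Genes of sterol synthesis, fatty acid synthesis and lipid storage or remodelling were followed through 4 groups of a human prostate cancer model. The members were 37 genes listed by symbol: 17 of sterol synthesis and its control, 7 of fatty acid synthesis, desaturation and elongation, and 13 of lipid activation, storage, transport or remodelling. Probes were taken through the gene symbol of the platform annotation, which gave 55 probes of 35 members, and 50 of these probes were above background. FDFT1 and ACSL3 had no probe under their symbols and were not analysed here. All 35 others were tested, among 12291 genes in all.

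The cells were 22Rv1, an established line from a human prostate carcinoma, and the RNA of 8 samples was hybridised to Illumina bead arrays, 1 array per sample. The parental group was the line labelled 22Rv1-Luc2, named for the luciferase reporter used to image cells in animals. The other groups were cells recovered after growth in vivo: a primary tumour derivative (22Rv1-PT) and the metastatic derivatives 22Rv1-M3-1 and 22Rv1-M3-2, each with 2 arrays. The labels do not name the host, the sites of growth, the number of animals, any drug treatment or the promoter of the reporter, nor do they say whether both arrays of a group stem from separate cultures. P-values therefore measure the spread between these arrays only, which may be technical. All groups descend from 1 cell line, and each derivative is represented by 1 line.

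Cholesterol is built from acetyl-CoA through mevalonate, squalene and lanosterol. SREBP transcription factors drive the genes of this route and of fatty acid synthesis, and INSIG proteins hold the SREBP escort SCAP in the endoplasmic reticulum when sterols are plentiful. Long-chain fatty acids are made by FASN from the products of ACLY and ACACA, desaturated by SCD and the FADS enzymes, lengthened by ELOVL enzymes, and activated by ACSL enzymes before storage as triglyceride in droplets coated by perilipins. In prostate cancer, FASN is a classic overexpressed enzyme.

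Levels are log2 intensities as the authors normalised them, and a difference of 1 on this scale is a doubling. A probe was taken as above background where it exceeded 6.55 on at least 2 arrays. Changes were tested with limma in 1 model over all 8 arrays, with p-values adjusted by Benjamini-Hochberg over all genes tested, and "rose" or "fell" means an adjusted p below 0.05. Metastatic lines were compared as the equally weighted mean of M3-1 and M3-2. The comparisons against parental cells share the same 2 parental arrays, and those against the primary tumour share its arrays.

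The spread between arrays of a group was widest in parental cells, where the SD across genes was 0.217 (log2), and it was 0.101 to 0.160 in the other groups. Of 10 luminal prostate markers, 7 were tested and were above background in every group, namely EPCAM, FOLH1, HOXB13, KLK2, KRT8, KRT18 and TMPRSS2. They did not move one way in the metastatic lines: TMPRSS2 fell by 0.93 against parental cells and by 0.94 against the primary tumour, KLK2 fell by 0.37 against the primary tumour (in 11 of 18 other settings), and FOLH1, KRT8 and KRT18 rose by 1.16, 0.63 and 0.91 against parental cells. With M3-1 alone KRT8 differed from parental cells by 0.28 (adjusted p = 0.265), and with M3-2 alone by 0.99 (0.000158). KLK2 differed from the primary tumour by -0.58 with M3-1 alone (adjusted p = 0.0112) and by -0.17 with M3-2 alone (0.51). The summed log2 level of the 7 markers was 64.9 to 65.1 in parental cells and 67.5 to 68.1 in the primary tumour. It was 66.0 to 66.4 in M3-1 and 68.3 to 68.6 in M3-2. KLK3 was not above background. Of 7 adipocyte markers, ADIPOQ, PLIN1, CIDEC and FABP4 were not above background, and LEP and LPL were. The summed log2 level of those 2 was 18.5 to 18.6 in parental cells, 17.1 to 17.4 in the primary tumour, 17.1 in M3-1 and 17.2 to 17.3 in M3-2. In the primary tumour LEP fell by 0.67 and LPL by 0.65 against parental cells (adjusted p = 0.0161 and 0.00848). In the metastatic lines LPL was at least 2.08-fold lower than in parental cells (adjusted p = 1.04e-05), while LEP, with a difference of -0.25, did not pass. Of 6 macrophage markers 2 were tested, with summed levels of 17.5 to 17.7, 17.3 to 17.5, 17.4 to 17.5 and 16.5 to 17.4 in the same order. PTPRC, CD163, CSF1R and TYROBP were not above background. Of 6 hepatocyte markers 3 were tested, with summed levels of 26.8 to 27.3, 25.0 to 25.5, 26.6 to 27.2 and 25.9 to 26.0. Among them ALB fell by 1.51 in the primary tumour against parental cells (adjusted p = 1.43e-05), while APOA1 and TTR did not pass. APOB, SERPINA1 and FGB were not above background. The 5 fibroblast markers tested, of 8, had summed levels of 36.4 to 36.5 in parental cells, 38.1 to 38.5 in the primary tumour, 41.5 to 41.9 in M3-1 and 42.1 to 42.5 in M3-2, while COL1A2, COL3A1 and PDGFRB were not above background. Among the 5, LUM went from 6.55 and 7.21 in parental cells to 11.17 to 11.85 on the metastatic arrays, and the others did not share that course. DCN was at least 1.28-fold higher than in parental cells and TAGLN rose by 0.52, but neither passed with M3-1 alone (adjusted p = 0.192 and 0.252). COL1A1 and ACTA2 differed by 0.03 and -0.19 without passing. ACTA2 was lower in M3-2 than in M3-1 by a log2 difference of -0.64 (adjusted p = 0.0179). The part of these markers in the lipid gene results was not tested. In such bulk RNA, fewer cells of a type and less RNA per cell cannot be told apart.

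Of the 35 members, 18 changed in at least 1 of 4 comparisons and 17 in none. The members were listed with earlier results of these data known. A share above that of all genes may therefore partly reflect this choice, and it is not a test of the lists. Between the primary tumour and parental cells 6 rose and 3 fell, or 25.7% of the members against 6.87% of all genes. In the metastatic lines 4 rose and 7 fell against parental cells, or 31.4% of the members where 13.7% of all genes were called. Against the primary tumour 3 rose and 11 fell, or 40.0% of the members against 11.7% of all genes. M3-2 differed from M3-1 in 3 members, with 2 higher, where 1.42% of all genes were, and 1 lower, where 1.05% were, or together 8.57% against 2.47%. The first count was smaller when either primary tumour array was left out, and so was the count of all genes called. The count against the primary tumour likewise varied with the array left out, as did that of all genes. Such fits leave 1 array in a group, and the ranges are given below.

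**Figure D1:**
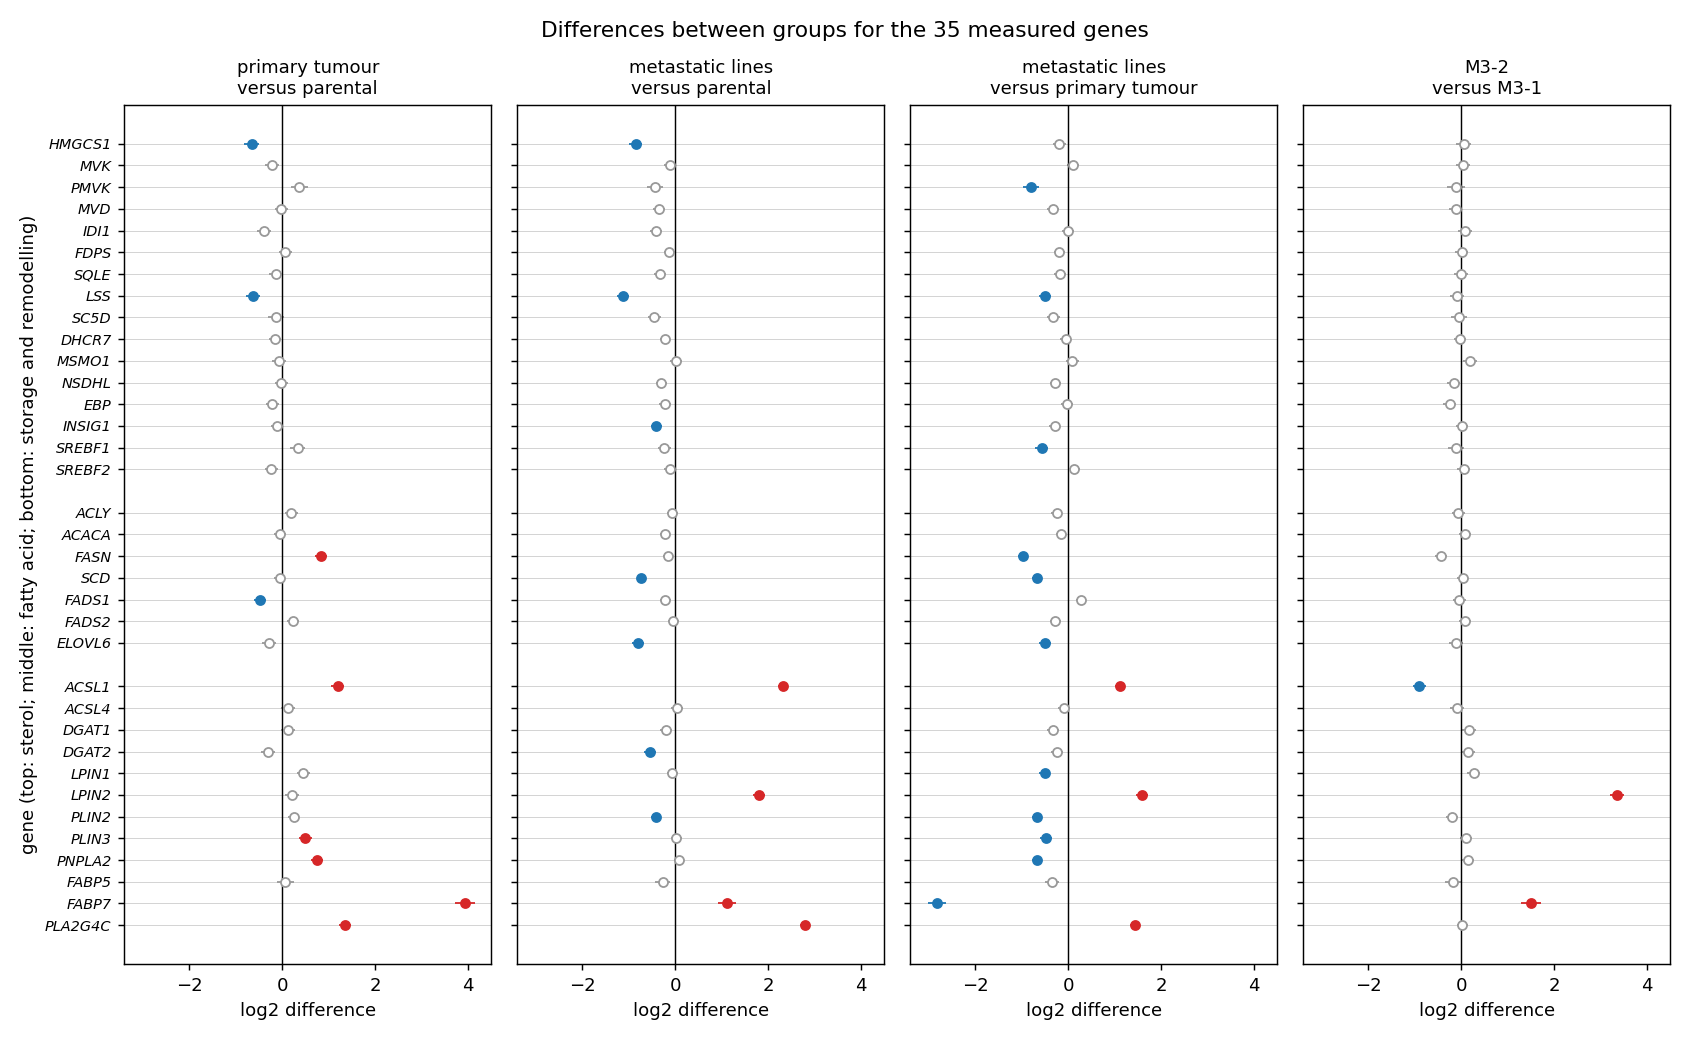
Log2 difference of each of the 35 tested genes (rows) in 4 comparisons (panels), with bars for the standard error of the limma fit. Filled red points were higher and filled blue points lower at an adjusted p below 0.05, and open grey points did not pass. Sterol genes lie at or left of 0 against parental cells with few exceptions, and the widest differences are those of FABP7, LPIN2, PLA2G4C and ACSL1 among the storage and remodelling genes.

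Genes of sterol synthesis and its control were lower in the metastatic lines where they changed at all. Of 16 members 3 fell against parental cells and none rose, where 7.38% of all genes fell and 6.35% rose. Together that is 18.8% of the 16 called against 13.7% of all genes, which is near the background. The median difference of the 16 was -0.31, with 15 of them below 0. The median of all genes was 0.0, with 6127 of 12291 below 0. The 18 other sterol genes tested, described below, did not share this shift, with a median of -0.03 and 11 of 18 below 0. In the primary tumour 2 of 16 fell against parental cells and none rose, with a median of -0.14, where 3.46% of all genes fell.

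LSS, lanosterol synthase, which closes the sterol ring, showed the widest difference of the sterol list. Its log2 intensity was 10.24 and 9.86 on the parental arrays, 9.49 and 9.37 in the primary tumour, 8.84 and 9.11 in M3-1, and 8.82 and 8.96 in M3-2. The levels step down from parental cells over the primary tumour to the metastatic lines, and no array of one step reaches the next. LSS fell by 0.62 in the primary tumour (SE 0.15, adjusted p = 0.0259) and by 1.12 in the metastatic lines (SE 0.13, adjusted p = 4.22e-05), a 2.17-fold difference. The metastatic lines also lay below the primary tumour, by a log2 difference of -0.50 (adjusted p = 0.0239). The call against parental cells held for the metastatic lines in each of 18 other settings. That for the primary tumour ended without parental replicate 1 (adjusted p = 0.0838), without primary tumour replicates 1 (0.102) and 2 (0.180), in a fit of the 2 groups alone (0.0897), under array weights (0.0545) and with the mean of the 3 probes (0.110). The call between the metastatic lines and the primary tumour ended without primary tumour replicates 1 (0.228) and 2 (0.104), M3-1 replicate 1 (0.115) and M3-2 replicate 1 (0.0795), with the mean of probes (0.157) and with M3-1 alone (0.0840). Of the other LSS probes, both dim at 6.23 to 6.86, 1 fell in the metastatic lines by 0.43, where none of its arrays was above background. That probe would not have met the background filter without the parental arrays, so against them it could only fall. The other had a difference of -0.29 without passing.

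HMGCS1, which makes HMG-CoA at the entry to the mevalonate route, read 11.80 and 12.31 in parental cells, 11.35 and 11.44 in the primary tumour, 11.15 and 11.20 in M3-1, and 11.12 and 11.33 in M3-2. Parental cells stood above every other array, while the derivatives lay close together. HMGCS1 fell by 0.66 in the primary tumour (SE 0.16, adjusted p = 0.0225) and by 0.85 in the metastatic lines (SE 0.14, adjusted p = 0.000668). The derivatives themselves differed by -0.19 (adjusted p = 0.443). For the primary tumour the call ended without parental replicate 2 (adjusted p = 0.0893), primary tumour replicates 1 (0.165) and 2 (0.0946), and M3-1 replicate 1 or 2 (0.0520 each), and with only the groups compared (0.0959). For the metastatic lines it held in 18 of 18 other settings.

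INSIG1, the sterol-sensing brake of SREBP processing and itself an SREBP target, read 11.68 and 11.86 in parental cells, 11.64 and 11.67 in the primary tumour, 11.46 and 11.25 in M3-1, and 11.29 and 11.44 in M3-2. The 4 metastatic arrays lay below all others. INSIG1 fell by 0.41 in the metastatic lines against parental cells (SE 0.12, adjusted p = 0.0287), but the call ended without parental replicate 2 (0.121), M3-1 replicates 1 (0.05) and 2 (0.135) and M3-2 replicate 1 (0.0827), and with array weights (0.115). It ended also with M3-1 alone (0.0696) or M3-2 alone (0.0655). A second INSIG1 probe had a difference of -0.28 and did not pass.

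HMGCS1, LSS, INSIG1, SCD and ELOVL6 are the genes of the sterol and fatty acid lists that fell against parental cells in the metastatic lines. For that reason the sequences upstream of them are shown, with SCD and ELOVL6 described below. Each is the 250 bases before a RefSeq transcription start (GRCh38.p14), written 5′ to 3′ on the gene's strand, with CCAAT or its complement ATTGG in capitals. CCAAT is the box bound by NF-Y, a factor known to act beside SREBP at sterol genes.
HMGCS1, chr5:43313413-43313662, minus strand, the outer of 2 annotated starts: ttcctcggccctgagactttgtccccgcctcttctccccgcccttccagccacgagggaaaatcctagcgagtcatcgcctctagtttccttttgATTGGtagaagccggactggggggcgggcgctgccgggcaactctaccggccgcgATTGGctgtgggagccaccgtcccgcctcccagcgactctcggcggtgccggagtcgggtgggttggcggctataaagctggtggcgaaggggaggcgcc
LSS, chr21:46228775-46229024, minus strand: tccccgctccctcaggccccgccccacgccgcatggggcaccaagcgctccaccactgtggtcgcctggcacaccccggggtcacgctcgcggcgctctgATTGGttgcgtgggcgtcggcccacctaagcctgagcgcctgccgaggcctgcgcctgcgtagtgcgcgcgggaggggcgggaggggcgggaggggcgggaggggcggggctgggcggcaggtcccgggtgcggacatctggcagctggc
INSIG1, chr7:155297628-155297877, plus strand: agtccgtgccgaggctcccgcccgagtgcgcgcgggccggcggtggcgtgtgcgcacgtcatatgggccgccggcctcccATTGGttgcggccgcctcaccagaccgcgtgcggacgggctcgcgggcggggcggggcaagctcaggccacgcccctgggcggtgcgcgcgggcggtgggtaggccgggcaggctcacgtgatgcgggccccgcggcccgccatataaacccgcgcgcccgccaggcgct
SCD, chr10:100346983-100347232, plus strand: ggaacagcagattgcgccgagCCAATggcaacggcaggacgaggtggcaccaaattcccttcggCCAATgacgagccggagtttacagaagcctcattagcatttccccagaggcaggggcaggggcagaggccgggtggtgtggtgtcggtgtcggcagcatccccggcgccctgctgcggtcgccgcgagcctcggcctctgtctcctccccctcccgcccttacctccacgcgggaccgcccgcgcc
ELOVL6, chr4:110198616-110198865, minus strand: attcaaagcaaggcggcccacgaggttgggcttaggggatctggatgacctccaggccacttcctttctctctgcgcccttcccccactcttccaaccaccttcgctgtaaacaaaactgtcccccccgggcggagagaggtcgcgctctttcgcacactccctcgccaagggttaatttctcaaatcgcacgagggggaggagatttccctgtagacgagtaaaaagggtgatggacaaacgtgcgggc

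Boxes begin 155 and 100 bases before the start in HMGCS1, 150 before it in LSS, 170 in INSIG1, and 229 and 186 in SCD. The ELOVL6 window and the second HMGCS1 window hold none. Among the 15 sterol members with an entry, 15 of 20 windows (75.0%) hold a CCAAT on either strand, against 32.0% of all 35116 windows. A match lies in 5 of 10 windows of the fatty acid members and in 4 of 16 (25.0%) of the storage and remodelling members. The sterol windows with a match include windows of members that did not change, such as MVK and MSMO1. The GC box GGGCGG lies in 90.0% of the sterol windows and 42.6% of all windows, the E-box CACGTG in 15.0% and 6.34%. The sterol regulatory motif TCACNCCAC, searched on both strands like the others, lies in 1 of 20 sterol windows, that of SREBF2, and in 0.883% of all windows. In the printed windows no CCAAT overlapped another motif searched. These counts describe letters only, since no binding was measured.

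The other enzymes of the route moved less. PMVK, which adds the second phosphate to mevalonate, read 10.68 and 10.04 in parental cells, 10.76 and 10.71 in the primary tumour, 9.96 and 10.02 in M3-1, and 9.65 and 10.10 in M3-2. The primary tumour lay clear of the metastatic lines, while the parental arrays lay wide apart and overlapped the metastatic range. PMVK fell by 0.80 in the metastatic lines against the primary tumour (SE 0.17, adjusted p = 0.00607), and the call ended without primary tumour replicate 1 (0.0748). Against parental cells its difference was -0.43 (adjusted p = 0.119).

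IDI1, the isomerase that makes dimethylallyl diphosphate, had differences of -0.40 in the primary tumour and -0.41 in the metastatic lines (adjusted p = 0.139 and 0.0508). SC5D, a late desaturase of the sterol ring, differed by -0.45 in the metastatic lines (adjusted p = 0.0518), and MVD, mevalonate diphosphate decarboxylase, by -0.35 (adjusted p = 0.0782). SQLE, squalene epoxidase, differed by -0.32, and NSDHL, which helps to remove methyl groups from the ring, by -0.30. FDPS, DHCR7, EBP, MVK and MSMO1, which serve other steps of the route, had differences between -0.23 and 0.02 in the metastatic lines. None of these passed in any of the 4 comparisons, which does not show that they were equal.

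Of the master regulators, SREBF1, which encodes SREBP-1 and mainly serves fatty acid synthesis, read 10.23 and 9.91 in parental cells, 10.23 and 10.57 in the primary tumour, 9.89 on each M3-1 array, and 9.98 and 9.58 in M3-2. The primary tumour was highest, and both its arrays stood clear of the metastatic ones, while its lower array was level with the higher parental one. SREBF1 fell by 0.57 in the metastatic lines against the primary tumour (SE 0.14, adjusted p = 0.0210). A second SREBF1 probe gave -0.56 (adjusted p = 0.0185 with each probe tested on its own). The call ended without primary tumour replicate 2 (0.288), M3-1 replicates 1 (0.0739) and 2 (0.0740) and M3-2 replicate 2 (0.0649), and with M3-1 alone (0.0821). Differences against parental cells were 0.33 in the primary tumour and -0.24 in the metastatic lines, and neither passed. SREBF2, which encodes the regulator of sterol genes, was dim at 6.61 to 7.03 and did not pass in any comparison.

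**Figure D2:**
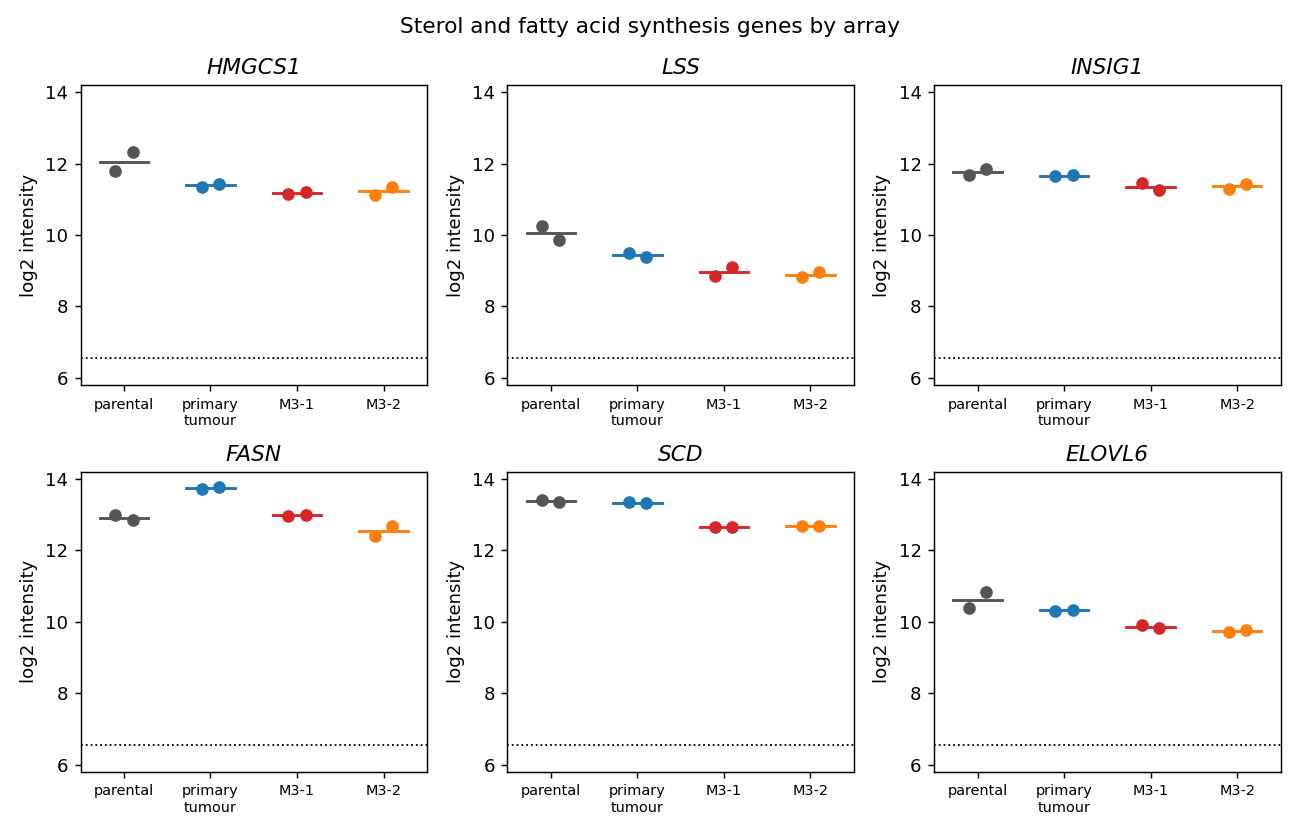
Log2 intensity of 6 genes of the sterol and fatty acid lists on each of the 8 arrays. Points are arrays, short lines are the means of 2 arrays, and the dotted line marks the background level of 6.55. LSS steps down from parental cells to the metastatic lines, FASN is highest in the primary tumour, and SCD sets the 4 metastatic arrays apart from the other 4.

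Among fatty acid synthesis genes, FASN was highest in the primary tumour, and SCD and ELOVL6 were lowest in the metastatic lines. In the primary tumour 1 of 7 rose and 1 fell against parental cells, where 3.42% and 3.46% of all genes did, with a median difference of -0.05. In the metastatic lines 2 of 7 fell and none rose against parental cells, where 7.38% and 6.35% of all genes did, with all 7 differences below 0 and a median of -0.21. Against the primary tumour 3 of 7 fell, where 6.42% of all genes fell.

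FASN, the fatty acid synthase itself, read 12.98 and 12.85 in parental cells, 13.71 and 13.77 in the primary tumour, 12.97 and 12.98 in M3-1, and 12.41 and 12.68 in M3-2. Both primary tumour arrays stood above all 6 others. FASN rose by 0.83 in the primary tumour (SE 0.13, adjusted p = 0.00133), a 1.78-fold difference. It fell by 0.98 from the primary tumour to the metastatic lines (SE 0.11, adjusted p = 6.21e-05), and these differed from parental cells by -0.15 (adjusted p = 0.485). Both calls held in 18 of 18 other settings.

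SCD, stearoyl-CoA desaturase, which makes monounsaturated fatty acids, had very even arrays: 13.42 and 13.36 in parental cells, 13.36 and 13.31 in the primary tumour, 12.64 on each array of M3-1, and 12.68 and 12.67 in M3-2. The 4 metastatic arrays lay in a narrow band below the other 4. SCD fell by 0.73 against parental cells (SE 0.10, adjusted p = 0.000215) and by 0.68 against the primary tumour (SE 0.10, adjusted p = 0.000576). Both calls held in all 18 other settings, and the primary tumour differed from parental cells by -0.05 (adjusted p = 0.876).

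ELOVL6, which lengthens saturated C16 chains, read 10.38 and 10.82 in parental cells, 10.31 and 10.32 in the primary tumour, 9.90 and 9.82 in M3-1, and 9.72 and 9.78 in M3-2. As with SCD, the metastatic arrays were lowest. ELOVL6 fell by 0.80 against parental cells (SE 0.13, adjusted p = 0.000614), and its second probe fell by 0.66. Against the primary tumour it fell by 0.51 (adjusted p = 0.0185), a call that ended without primary tumour replicates 1 (0.138) and 2 (0.141), M3-1 replicates 1 (0.0592) and 2 (0.0799) and M3-2 replicate 1 (0.0583), and with M3-1 alone (0.0779).

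FADS1, the delta-5 desaturase of polyunsaturated fatty acids, went another way, with 10.83 and 10.73 in parental cells, 10.30 and 10.31 in the primary tumour, 10.54 and 10.65 in M3-1, and 10.47 and 10.64 in M3-2. The primary tumour was lowest, with the metastatic lines between it and parental cells. FADS1 fell by 0.48 in the primary tumour (SE 0.13, adjusted p = 0.0353). That call ended without parental replicate 1 (0.0646), primary tumour replicates 1 (0.200) and 2 (0.179), and M3-1 replicate 1 or 2 (0.0813 each), in a fit of the 2 groups alone (0.119) and under array weights (0.0928). ACLY, which makes cytosolic acetyl-CoA from citrate, ACACA, the acetyl-CoA carboxylase, and FADS2, the delta-6 desaturase, had differences between -0.28 and 0.24 in the comparisons and did not pass.

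Storage and remodelling genes held the widest differences of the 3 lists. Of 12 members 5 rose and none fell in the primary tumour against parental cells, with 11 of 12 differences above 0 and a median of 0.35, where 3.42% of all genes rose. Against parental cells 4 rose and 2 fell in the metastatic lines, where 6.35% and 7.38% of all genes did, with a median of 0.03. From the primary tumour to the metastatic lines 3 rose and 5 fell, with a median of -0.33 beside -0.01 over all genes. In this comparison 5.32% of all genes rose and 6.42% fell.

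FABP7, a fatty acid-binding protein best known from brain and glia, was near background in parental cells at 6.13 and 6.29. It reached 9.98 and 10.31 in the primary tumour, 6.65 and 6.50 in M3-1, and 7.64 and 8.5 in M3-2. The primary tumour was highest, M3-2 intermediate with arrays far apart, and M3-1 at background, with 1 of its 2 arrays above it. In the primary tumour FABP7 exceeded parental cells and was at least 12.1-fold higher (log2 difference 3.93, SE 0.22, adjusted p = 9.25e-08), computed against the background level of 6.55. It fell by 2.82 from the primary tumour to the mean of the metastatic lines (SE 0.19, adjusted p = 4.27e-07). The metastatic lines together were at least 1.71-fold higher than parental cells (adjusted p = 0.00102), yet M3-1 alone differed by 0.36 (adjusted p = 0.401) and M3-2 alone rose by 1.86 (adjusted p = 4.70e-05). M3-2 exceeded M3-1 by 1.5 (SE 0.22, adjusted p = 0.00168), and this held in 18 of 18 other settings.

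The related carrier FABP5 was bright in every group, with 10.23 and 10.38 in parental cells, 10.13 and 10.62 in the primary tumour, 9.97 and 10.25 in M3-1, and 9.72 and 10.17 in M3-2. Neighbouring groups overlapped, although both M3-2 arrays lay below both parental ones, and no comparison passed. Its 3 probes did not share a direction in the primary tumour, with differences between -0.20 and 0.07, and FABP5 has processed copies in the genome that its probes may not separate.

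LPIN2, a lipin phosphatase that makes diacylglycerol from phosphatidic acid, was high in M3-2 alone. It read 7.20 and 7.12 in parental cells, 7.53 and 7.24 in the primary tumour, 7.33 and 7.28 in M3-1, but 10.81 and 10.48 in M3-2. The primary tumour and M3-1 overlapped, parental cells lay just below them, and M3-2 stood far above all 3. LPIN2 was 10.1-fold higher in M3-2 than in M3-1 (log2 difference 3.34, SE 0.15, adjusted p = 2.69e-08). A second LPIN2 probe read 6.19 and 6.21 in M3-1 and 7.72 and 7.61 in M3-2, a difference of 1.46. It was above background on the M3-2 arrays alone, so it could only be higher there and its difference is understated. The mean of both lines rose by 1.81 over parental cells (adjusted p = 3.23e-07), but M3-1 alone differed by 0.14 (adjusted p = 0.678) and M3-2 alone rose by 3.49 (adjusted p = 3.89e-09). Against the primary tumour the mean rose by 1.59 (adjusted p = 2.01e-06), where M3-1 alone gave -0.08 (adjusted p = 0.828) and M3-2 alone 3.26 (adjusted p = 1.12e-08).

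LPIN2 lies on chromosome 18. The 10 tested genes nearest to it, 5 on each side in RefSeq order, were compared between M3-2 and M3-1. Of these 1 was called, where 2.47% of all genes were. This was EMILIN2, which encodes a matrix protein and is the tested gene next to LPIN2, lower in M3-2 by a log2 difference of -0.80 (SE 0.12, adjusted p = 0.00187). The others, among them SMCHD1, MYL12A and TGIF1, had differences between -0.24 and 0.44. The rise of LPIN2 was thus not shared by the tested genes around it. These neighbours were examined after the LPIN2 values had been seen.

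**Figure D3:**
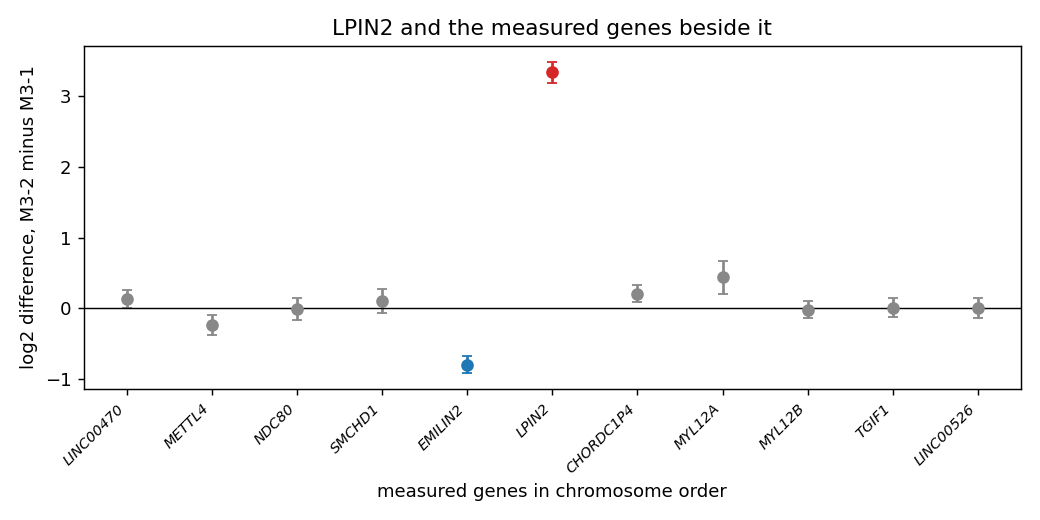
Log2 difference between M3-2 and M3-1 for LPIN2 and the 5 tested genes on either side, in chromosome order and not to distance. Points are limma estimates with bars for the standard error, red for higher, blue for lower and grey for not passing. LPIN2 stands at 3.34, EMILIN2 at -0.80, and the other 9 lie between -0.24 and 0.44.

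Its paralog LPIN1, which catalyses the same step, followed another course, with 10.89 and 10.63 in parental cells, 11.15 and 11.27 in the primary tumour, 10.59 and 10.55 in M3-1, and 10.92 and 10.75 in M3-2. The primary tumour was highest. LPIN1 fell by 0.51 from the primary tumour to the metastatic lines (SE 0.12, adjusted p = 0.0118), a call that ended without primary tumour replicates 1 (0.0665) and 2 (0.160) and M3-1 replicate 2 (0.0564), and with M3-2 alone (0.113). Its difference of 0.45 between the primary tumour and parental cells did not pass (adjusted p = 0.0657).

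ACSL1, an acyl-CoA synthetase that activates long-chain fatty acids, climbed across all groups. It read 8.40 and 8.52 in parental cells, 9.69 and 9.61 in the primary tumour, 11.30 and 11.13 in M3-1, and 10.29 and 10.35 in M3-2. No 2 groups overlapped, and M3-1 was highest. ACSL1 rose by 1.19 in the primary tumour (SE 0.13, adjusted p = 4.12e-05) and by 2.31 in the metastatic lines (SE 0.11, adjusted p = 4.98e-09), a 4.96-fold difference. It also rose by 1.12 from the primary tumour to the metastatic lines (adjusted p = 1.26e-05), and was lower in M3-2 than in M3-1 by 0.90 (a log2 difference of -0.90, SE 0.13, adjusted p = 0.00119). All these calls held in the 18 other settings. ACSL4, an acyl-CoA synthetase that prefers arachidonic acid, was dim, at most 7.46, and did not pass in any comparison.

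PLA2G4C, the calcium-independent cytosolic phospholipase A2 gamma, which frees fatty acids from phospholipids, rose in 2 steps. Its arrays read 6.73 and 6.71 in parental cells, 8.10 and 8.03 in the primary tumour, 9.43 and 9.56 in M3-1, and 9.47 and 9.56 in M3-2. Both metastatic lines reached the same level, with a difference of 0.02 between them (SE 0.12, adjusted p = 0.991). PLA2G4C rose by 1.35 in the primary tumour (SE 0.12, adjusted p = 1.21e-05) and by 1.44 more from there to the metastatic lines (SE 0.11, adjusted p = 8.90e-07). The metastatic lines exceeded parental cells by 2.79 (SE 0.11). Each of these calls held in 18 of 18 other settings. Parental cells lay just above background, so the fold there is understated.

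**Figure D4:**
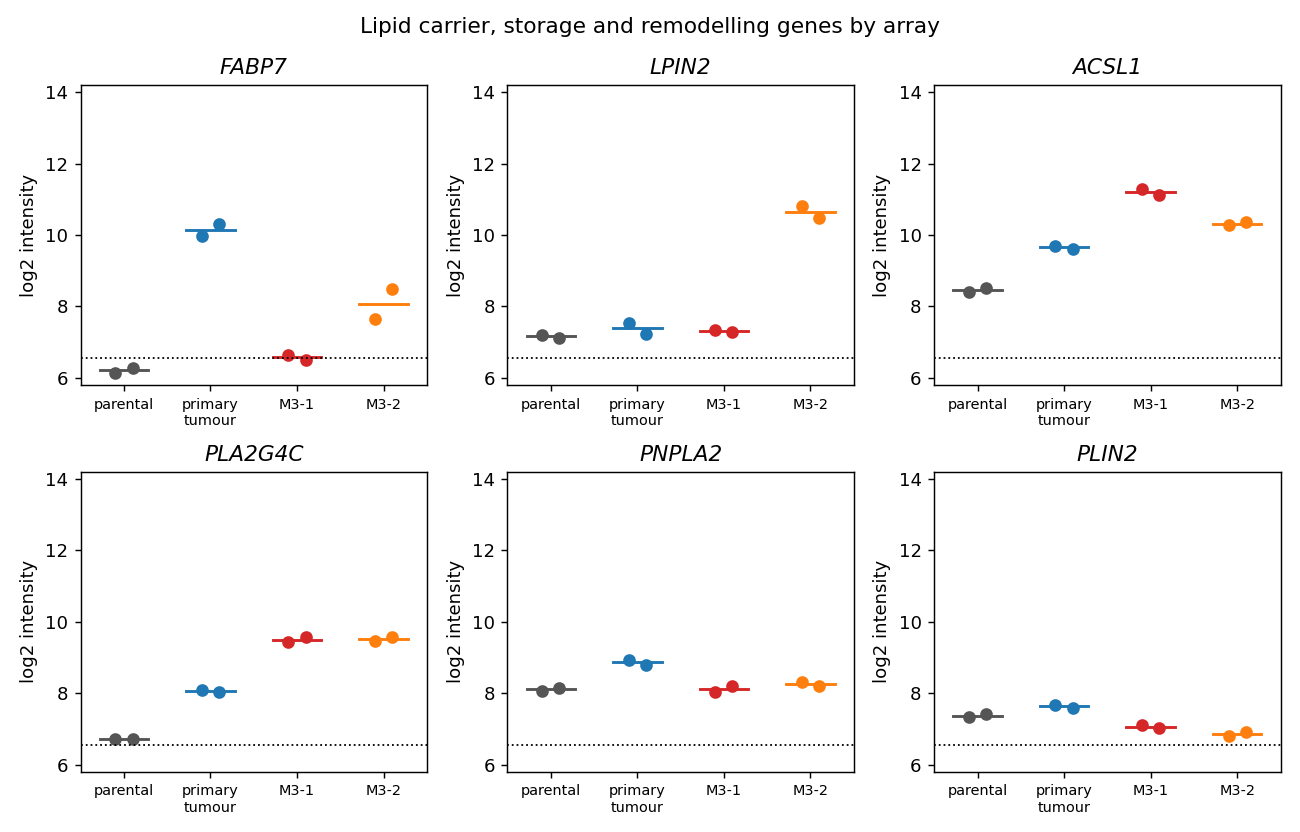
Log2 intensity of 6 storage, carrier and remodelling genes on each of the 8 arrays. Points are arrays, short lines the means of 2 arrays, and the dotted line the background level of 6.55. FABP7 peaks in the primary tumour, LPIN2 is high on the M3-2 arrays at 10.81 and 10.48, ACSL1 peaks in M3-1, and PLA2G4C reaches 9.43 to 9.56 in both metastatic lines.

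The droplet genes PNPLA2 and PLIN3 rose in the primary tumour. PNPLA2, the adipose triglyceride lipase, read 8.07 and 8.14 in parental cells, 8.94 and 8.78 in the primary tumour, 8.02 and 8.21 in M3-1, and 8.30 and 8.21 in M3-2. The primary tumour stood apart from all other arrays. PNPLA2 rose by 0.75 there (SE 0.13, adjusted p = 0.00249), a call that ended without primary tumour replicate 1 (0.0518). It fell by 0.68 from there to the metastatic lines (SE 0.11, adjusted p = 0.00120).

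PLIN3, a perilipin on nascent droplets, read 11.42 and 11.25 in parental cells, 11.97 and 11.70 in the primary tumour, 11.32 and 11.31 in M3-1, and 11.38 and 11.44 in M3-2. It shared the peak in the primary tumour, rising by 0.50 (SE 0.13, adjusted p = 0.0388) and falling by 0.48 to the metastatic lines (adjusted p = 0.0156). The rise was fragile, ending in each fit without 1 array except that without parental replicate 1, with adjusted p-values from 0.0547 without M3-2 replicate 1 or 2 to 0.357 without primary tumour replicate 1. Without parental replicate 2 it was 0.0961, without primary tumour replicate 2 0.0588, and without M3-1 replicate 1 or 2 0.0884 each. It was 0.148 in a fit of the 2 groups alone and 0.0928 under array weights. The fall ended without primary tumour replicate 1 (0.278) and M3-1 replicates 1 (0.0626) and 2 (0.0660), and with M3-2 alone (0.0634).

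PLIN2, the perilipin of most non-adipose droplets, read 7.32 and 7.43 in parental cells, 7.68 and 7.58 in the primary tumour, 7.10 and 7.02 in M3-1, and 6.81 and 6.91 in M3-2. The order was primary tumour, parental cells, M3-1 and M3-2, with no overlap of neighbouring groups. Only the metastatic decreases passed: PLIN2 fell by 0.67 against the primary tumour (SE 0.11, adjusted p = 0.000908), which held in 18 of 18 other settings, and by 0.41 against parental cells (SE 0.11, adjusted p = 0.0188). The latter ended without parental replicate 2 (0.0660), M3-1 replicates 1 (0.0571) and 2 (0.0877) and M3-2 replicate 1 (0.0526), with array weights (0.0837) and with M3-1 alone (0.150). A second, dimmer PLIN2 probe had differences of -0.29 and -0.22 and did not pass.

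DGAT2, which adds the last acyl chain of triglyceride, was dim, at 6.78 and 6.94 in parental cells and 6.58 and 6.51 in the primary tumour. The metastatic arrays read 6.08 to 6.52, and none of them was above background. DGAT2 would not have met the background filter without the parental arrays. Against those arrays it could therefore only fall, and it is among the members counted as fallen above. Metastatic lines were at least 1.24-fold lower than parental cells (log2 difference -0.55, SE 0.13, adjusted p = 0.00922), and the call ended without M3-1 replicate 2 (0.0557) and with M3-2 alone (0.05). DGAT1, which catalyses the same step, had differences between -0.32 and 0.16 and did not pass.

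Further genes of the same routes were counted from fixed lists. Of 24 other sterol genes, 18 were tested, and 3 fell and none rose in the metastatic lines against parental cells, or 16.7% of them against 13.7% of all genes, which is near the background. TM7SF2, a sterol reductase, fell by 0.64 (SE 0.11, adjusted p = 0.00105), SCAP, the SREBP escort, by 0.44, and NPC2, which exports cholesterol from lysosomes, by 0.39. The call of TM7SF2 held in 18 of 18 other settings, that of SCAP in 12 (adjusted p up to 0.217) and that of NPC2 in 9 (up to 0.132). Against the primary tumour SCARB1, the HDL receptor, rose by 0.50, and LBR, a sterol reductase of the nuclear envelope, fell by 0.46, calls that held in 15 and 11 of 18 settings (adjusted p up to 0.203 and 0.255). With M3-1 alone SCAP (-0.31, adjusted p = 0.244) and NPC2 (-0.28, 0.259) did not pass against parental cells. Against the primary tumour LBR with M3-1 alone (-0.32, 0.275) and SCARB1 with M3-2 alone (0.39, 0.111) did not pass either. In the primary tumour none of the 18 other sterol genes passed against parental cells.

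Of 23 other fatty acid genes, 16 were tested, and 3 fell and 2 rose in the metastatic lines against parental cells, where 7.38% and 6.35% of all genes did. ACSS2, which makes acetyl-CoA from acetate, fell by 0.90 (SE 0.10, adjusted p = 3.31e-05), from 10.97 and 10.99 in parental cells and 10.62 and 10.60 in the primary tumour to 10.04 to 10.12 in the metastatic lines. ME1, the malic enzyme that supplies NADPH, rose by 0.96 (SE 0.13, adjusted p = 0.000115), from 7.29 and 7.51 in parental cells to between 8.13 and 8.44 on 3 metastatic arrays and 8.5 on the fourth. ACSS2 and ME1 thus moved in opposite directions, each clear of the parental arrays. The elongase ELOVL5 fell by 0.54, the elongase ELOVL4 rose by 0.36, and MLXIPL, the glucose-sensing lipogenic regulator ChREBP, was at least 1.46-fold lower, with no M3-2 array above background. The ELOVL4 call held in 6 of 18 other settings (adjusted p up to 0.163) and that of ELOVL5 in 13 (up to 0.201), with 1 M3-2 array of ELOVL5 above a parental one. With M3-1 alone ELOVL4 differed by 0.22 (adjusted p = 0.397), and with M3-2 alone ELOVL5 differed by -0.41 (0.183). The calls of ACSS2 and ME1 held in all 18 other settings. Against the primary tumour ACSS2 fell by 0.53, ME1 rose by 0.80 and MLXIPL was at least 1.34-fold lower. The elongase ELOVL2 fell by 0.53 there, though with M3-1 alone it differed by -0.35 (adjusted p = 0.141). Of these, the calls of ACSS2 and ELOVL2 each ended in 1 setting (adjusted p = 0.0665 and 0.218), and that of MLXIPL held in 13 of 17 (up to 0.223). Between the primary tumour and parental cells, ELOVL2 alone of this list passed, with a rise of 0.52 that held in 10 of 18 settings (adjusted p up to 0.349).

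Of 34 other storage and remodelling genes, 16 were tested, and 3 fell and 1 rose in the metastatic lines against parental cells, where 7.38% and 6.35% of all genes did. AGPAT2, which makes phosphatidic acid, fell by 0.81 (SE 0.11, adjusted p = 0.000170), from 8.61 and 8.38 to 7.61 to 7.82 on the metastatic arrays. CIDEB, a droplet protein, fell by 0.57, and both calls held in every other setting that could be run. The third of these was MGLL, the monoglyceride lipase, which was above background on the parental arrays alone, at 6.56 and 6.58, so that it could only fall, and its call held in 7 of 17 settings (adjusted p up to 0.140). MGLL passed with neither line alone (adjusted p = 0.109 with M3-1 and 0.0504 with M3-2). ABHD5, the activator of PNPLA2, rose by 0.66 (SE 0.15, adjusted p = 0.00682), but with M3-1 alone it differed by 0.49 (0.0937). AGPAT2 also fell by 0.80 against the primary tumour. None of the 16 passed between the primary tumour and parental cells or between M3-2 and M3-1. In the latter comparison none of the other sterol and fatty acid genes passed either.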

How the data were processed

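RNA of 8 samples was measured on Illumina single-colour bead arrays with biotin-labelled cRNA, per the labels' protocols. The authors deposited log2 intensities for 47320 probes. No source used here names the software, background correction or normalisation behind them. The deposited log2 values have nearly the same distribution on every array, with a largest spread at any rank of 0.0119, as after quantile normalisation, and they level off near the background, so folds of dim genes are understated. A second deposited table, with 16 columns of per-sample values named by running numbers that match no label, was not used.

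GEO's platform annotation gave 1 symbol for 30112 probes, several for 8 and none for 17200. Entrez identifiers matched current RefSeq genes for 30073, and 0 symbols changed. The background level of 6.55 is what a share of 0.01 of a normal background would exceed (mode 6.12, SD 0.183). Each gene was represented by its brightest probe above this level on at least 2 arrays, which left 12291 genes from 16731 probes. Of 12 members with several such probes, all probes moved in the same direction in the 12 called results that concern them. The second LPIN2 probe could only do so, since it was above background on the M3-2 arrays alone. A dim LSS probe met the filter only through the parental arrays, so against those it too could only fall. Group means were fitted with limma 3.58.1 in R 4.3.3 (lmFit, contrasts, eBayes), with 4 residual degrees of freedom and 9.38 from the prior. The procedure was tested on simulated data. A fold is "at least" where a group was at or below background on all arrays and was set to that level. The precision is limited by 2 arrays per group.

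Every member is named, with other pathway genes where called (up to 6 per list and comparison). The members and lists were chosen with earlier results of these data known. The promoter windows came from RefSeq (GRCh38.p14), with an entry for 30 of 37 members. Alternatives covered the filter, probe choice, background, normalisation, array weights, groups fitted, moderation, replicate block and each array left out. Setting each metastatic line alone was added after seeing the data.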

Additional observations from a re-analysis of the deposited data

Results flagged for a closer look

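Effects against parental cells differed between the metastatic lines for 3 of the 35 members, by the limma contrast of M3-2 with M3-1. LPIN2 differed by 3.34 on the log2 scale (adjusted p = 2.69e-08). Its arrays read 7.33 and 7.28 in M3-1 and 10.81 and 10.48 in M3-2. The second LPIN2 probe, above background on the M3-2 arrays alone, differed by 1.46. FABP7 differed by 1.5 (adjusted p = 0.00168), with M3-1 at 6.65 and 6.50 and M3-2 at 7.64 and 8.5. ACSL1 differed by -0.90 (adjusted p = 0.00119), with M3-1 at 11.30 and 11.13 and M3-2 at 10.29 and 10.35. The calls of all 3 held in 18 of 18 other settings, with the highest adjusted p at 7.14e-06 for LPIN2, 0.0440 for FABP7 and 0.0490 for ACSL1. Each line is a single derivative with 2 arrays, so a difference between the lines cannot be told apart from a difference between their cultures or arrays.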

How the results depend on the processing

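Of 37 called member results, 23 kept their direction and call in all 18 planned settings, 14 lost the call in at least 1, and none changed direction. Cyclic loess, normexp background correction, no background filter, trend and robust moderation, the replicate block and separate probes ended none of the 37. The member count was 5 for the primary tumour against parental cells with only the groups compared, and 7 for the metastatic lines against parental cells with M3-1 alone. LPIN2 turned to -0.08 against the primary tumour with M3-1 alone. With single arrays left out, the members called ranged from 4 to 10 (primary tumour against parental), 8 to 13 (metastatic against parental), 9 to 16 (metastatic against primary tumour) and 3 to 3 (M3-2 against M3-1), where 9, 11, 14 and 3 were reported. All genes called ranged from 354 to 1395, 1099 to 2064, 590 to 2180 and 94 to 492 in the same order, where 845, 1687, 1443 and 303 were reported. With array weights, which were lowest for parental arrays, they were 1089, 2257 and 548 in the last 3 comparisons. With only the groups compared they were 419, 2180 and 484 in the first, the third and the fourth comparison. The replicate block gave 10, 13, 14 and 3 members called, and ended no call. It added LPIN1 in the first comparison (adjusted p = 0.0424) and IDI1 (0.0195) and SC5D (0.0168) in the second. The numbers were not taken as pairs, since same-numbered deviations correlated by over 0.1 in only 3 of 6 pairs of groups (-0.181 to 0.522). The correlation of 0.522 was that between parental cells and the primary tumour. In their comparison the replicate block called 1143 of all genes, where 845 were reported. The causes were not tested, beyond the fewer arrays that some settings hold. Genes near background have only a bound on 1 side, and 2 arrays per group limit what can be called.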

Other observations

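The genes whose levels ran most like those of 3 members over the 8 arrays were found by Pearson correlation among the 12291 tested, as a description without a test, since the 8 arrays fall into 4 groups and share their normalisation. Nearest to FABP7 were APOO (r = 0.989), ANXA2 (0.981), HID1 (0.977), MALL (0.976) and ANXA2P1 (0.974), the last a pseudogene of ANXA2. Nearest to LSS were ISYNA1 (0.993), which makes inositol phosphate from glucose 6-phosphate, DPEP3 (0.987), GABARAPL2 (0.983), GSTK1 (0.982) and UNC93B1 (0.981). Nearest to PLA2G4C were NREP, MACROH2A2 and CNNM2 (0.991 each), P2RY1 (0.990), a purine receptor, and DNAH2 (0.989). No other lipid member was among these 15. With 35 members among the 12291 genes tested, few or none would fall there in any case.

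The tested genes beside the other strongly changed members were examined after their values had been seen. Of the 10 around ACSL1, none was called between the metastatic lines and parental cells, where 13.7% of all genes were. Their differences ran from -0.34 to 0.15 beside 2.31 for ACSL1. Of the 10 around FABP7, none was called between the primary tumour and parental cells, where 6.87% of all genes were. Their differences ran from -0.45 to 0.07 beside 3.93 for FABP7. Of the 10 around PLA2G4C, 2 were called between the metastatic lines and parental cells, again beside 13.7% of all genes. These were ZNF114 with 0.43 and TMEM143 with -0.36, beside 2.79 for PLA2G4C. With 10 genes each, these counts are near the background.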
